A study of Mus musculus with 10 samples.

Results

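The genes described here are the 9 genes Gckr, Slc2a2, Pklr, Pfkfb1, Gys2, Pygl, Gbe1, Ppp1r3b and Ppp1r3c, which serve glucose sensing, the entry of glucose into glycolysis and the storage of glucose as glycogen in the liver. They were chosen by name from 43629 Ensembl genes counted by RNA-seq. The rule uses no measured values, but the choice was made with earlier results of these data known. All 9 were expressed highly enough to be tested among 14143 genes. Their levels were compared between livers of KL mice that had developed cancer anorexia–cachexia syndrome (CACS) and livers of KL mice that had not (NCACS), with 5 male mice in each group.

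KL mice carry Lkb1 flox/flox together with another Cre-activated allele on an FVB background, and all 10 had lung tumours induced as adults by an adenovirus that expresses Cre from the CMV promoter and was given through the nose. The virus was given to the airways, and the liver was studied as an organ of the tumour-bearing host. The study called a mouse CACS when it had lost more than 15% of its peak body weight. The labels give weight changes between -14 and -3% for NCACS mice and between -33 and -29% for CACS mice, and no mouse lay between the groups. A relation with weight loss within the groups was not tested. Both groups carried tumours and there were no tumour-free livers, lung tumour mass was not measured, and the labels give neither the hour of collection nor food intake.

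In the fed state, hepatocytes take up glucose through the transporter GLUT2, phosphorylate it with glucokinase and either pass it down glycolysis or link it into glycogen. In fasting the flow reverses, as glycogen is broken down and glucose is released to the blood. The switch between storage and breakdown is set by phosphorylation: protein phosphatase 1, brought to the glycogen particle by targeting subunits of the Ppp1r3 family, removes phosphate from glycogen synthase and from glycogen phosphorylase, which turns the first on and the second off. Several of these genes are also known to follow feeding, insulin and the daily clock in normal liver.

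Raw counts ranged from 31945328 to 38306888 per NCACS liver and from 31459179 to 40746178 per CACS liver, and the 9 genes had between 745 and 15095 counts in any liver, so that counting error was small beside the spread between mice. Levels are given as TMM-normalized CPM (counts scaled to a common library size), changes as log2 fold changes of CACS over NCACS from edgeR's quasi-likelihood test, and p-values are adjusted over all 14143 tested genes by the Benjamini-Hochberg method with a threshold of 0.05. The hepatocyte markers Alb, Ttr, Apoa1, Tat and Serpina1a were all tested, and their sum ranged from 63161 to 111268 CPM among NCACS livers and from 103861 to 129192 CPM among CACS livers, most of it Alb (68587 ± 18456 and 92841 ± 9258 CPM, SD, n = 5). The summed levels of 6 macrophage markers ranged from 149.9 to 251 CPM among NCACS livers and from 87.3 to 175 CPM among CACS livers. All 6 had negative log2 fold changes (median -0.85), and 1, Cd5l, passed the threshold (lower in CACS livers). EdgeR's unadjusted p was under 0.05 for 4 of the 6, against 21.6% of all tested genes. All 6 muscle markers had negative log2 fold changes (median -1.30, unadjusted p under 0.05 for 4, none called), with sums of 24.6 to 127 CPM among NCACS and 9.49 to 44.9 CPM among CACS livers and the highest in NCACS mouse 11. Of 6 lymphocyte markers 3 were tested, and all 3 had an unadjusted p under 0.05 (median log2 fold change -1.14, none called), with sums of 7.86 to 16.7 and 5.22 to 11.02 CPM. Among 17 clock genes none was called and 6 had an unadjusted p under 0.05, and their median absolute log2 fold change was 0.94 against 0.20 over all tested genes. The log2 fold changes of Per1, Per2 and Nr1d1 were 1.23, 1.21 and -1.65 (adjusted p = 0.177, 0.128 and 0.0930). NCACS mouse 15 stood apart in clock genes, with 1.27 CPM of Dbp against 52.1 CPM or more in the other NCACS livers and 33.8 CPM of Arntl against at most 7.21 CPM. The part of these differences in the results below was not tested. In whole liver, fewer cells of a type and less RNA per cell cannot be told apart.

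Promoter sequences were available for 7 of the 9 genes (all but Gys2 and Ppp1r3b) from RefSeq on GRCm38.p6, as windows from 250 bases before to 50 bases after each transcription start. A pair of stretches is shown because each holds a known type of response site for a gene described below. The capitals mark, in Pklr, a pair of E-box-like elements set 5 bases apart, the arrangement known from studies of liver pyruvate kinase as its carbohydrate response element, through which the glucose-sensing factor ChREBP acts, and, in Ppp1r3c, CACGTG, the E-box bound by clock and carbohydrate-sensing factors:
Pklr, forward strand, chr3:89136413-89136509: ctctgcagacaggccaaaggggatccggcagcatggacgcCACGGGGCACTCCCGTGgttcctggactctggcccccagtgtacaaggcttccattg
Ppp1r3c, reverse strand, chr19:36736663-36736748: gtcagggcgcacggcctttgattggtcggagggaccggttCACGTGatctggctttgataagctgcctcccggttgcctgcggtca
The Pklr match begins at -170 from the start of the shorter, liver-type transcript. The pattern searched for was written down after this window had been read, so the single match among 32851 windows of the same length (0.00304%) is Pklr's own and says nothing of how rare it is. The E-box of Ppp1r3c begins at -104 from its start, and 7.15% of all windows hold that motif on either strand. The full cyclic AMP response element TGACGTCA (1.79% of windows) and the forkhead core GTAAACA (3.65%) were in none of the members' windows, and the short form TGACG (20.8%) was found in Pygl alone of the 7 genes. A match is a description of letters, and binding was not measured.

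Of the 9 genes, 1 passed the threshold. Ppp1r3b, which encodes the main glycogen-targeting subunit of protein phosphatase 1 in liver, was 2.22-fold higher in CACS livers, and no other member was called in either direction. Of all tested genes 3.8% were called (1.89% higher and 1.92% lower in CACS livers), so a single call among 9 genes is a result about that gene and not about the list. Ppp1r3b was also the 1 member whose groups did not overlap, against 7.07% of all tested genes without overlap (3.95% higher and 3.13% lower in CACS livers). The median log2 fold change was 0.13 over the 9 members and -0.01 over all tested genes, and edgeR's unadjusted p-value was under 0.05 for 2 members and for 21.6% of all genes.

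**Figure D1:**
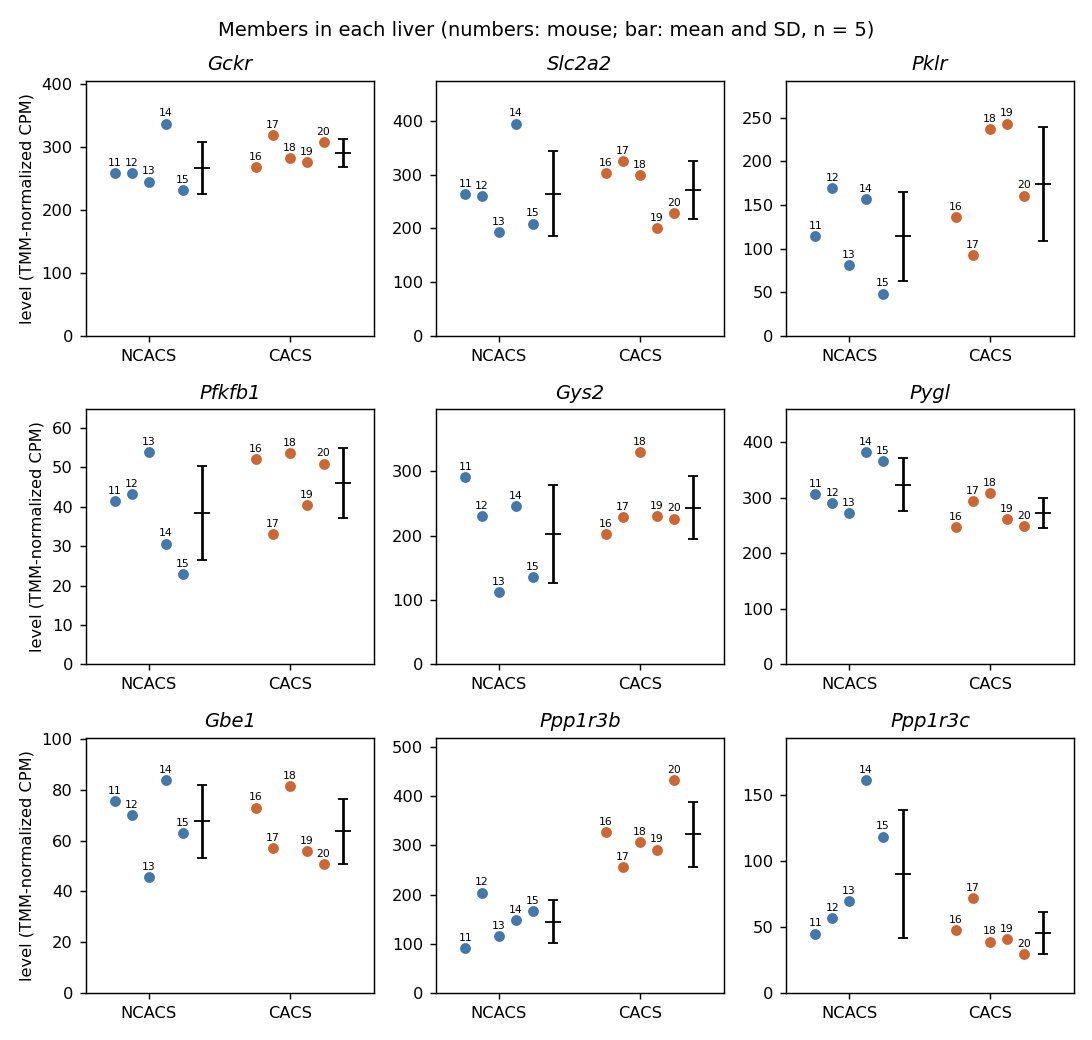
Levels of the 9 genes (TMM-normalized CPM, linear axes from 0) in each of the 5 NCACS and 5 CACS livers, labelled by mouse number, with the mean and SD of each group as a bar. The 5 CACS livers lie above all 5 NCACS livers for Ppp1r3b, from 256 CPM upwards against at most 204 CPM, and the groups overlap for the other 8 genes.

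Glucose enters hepatocytes through GLUT2, which Slc2a2 (ENSMUSG00000027690, chromosome 3 of GRCm38, 28697903 to 28731359) encodes. Its level in NCACS mice 11 to 15 was 264, 259.8, 194, 395 and 209 CPM, and in CACS mice 16 to 20 it was 302, 325, 299.6, 201 and 228 CPM. NCACS mouse 14 held the highest value and NCACS mouse 13 the lowest, so the CACS livers fell inside the NCACS range. The log2 fold change was 0.04 (standard error 0.202, 95% interval -0.41 to 0.48, adjusted p = 0.941), and its sign turned in 5 of the 10 fits without 1 mouse.

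Gckr (ENSMUSG00000059434, chromosome 5, 31297443 to 31327314) encodes the regulatory protein that holds glucokinase inactive in the nucleus when glucose is low. Levels were 259, 259, 245, 337 and 232 CPM in NCACS mice 11 to 15 and 268, 319, 282, 276 and 307 CPM in CACS mice 16 to 20. All CACS livers were above 4 of the 5 NCACS livers, and only NCACS mouse 14 exceeded them. The group means were 266 ± 41.2 and 291 ± 21.6 CPM (± SD, n = 5 per group), a log2 fold change of 0.13 (standard error 0.117, 95% interval -0.13 to 0.38, adjusted p = 0.571). Gckr was among the most evenly expressed members, with a coefficient of variation of 15.5% over NCACS and 7.43% over CACS livers.

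Pfkfb1 (ENSMUSG00000025271, X chromosome, 150588229 to 150643878) encodes the liver form of the bifunctional enzyme that makes and removes the fructose bisphosphate that activates phosphofructokinase. It had 41.5, 43.3, 53.9, 30.7 and 23.0 CPM in NCACS mice 11 to 15 and 52.1, 33.1, 53.7, 40.4 and 51.0 CPM in CACS mice 16 to 20. NCACS mouse 15, which stood apart in clock genes, had the lowest level of the 10 livers, and mouse 13 of the same group had the highest. The log2 fold change of 0.26 (standard error 0.214, 95% interval -0.21 to 0.73, adjusted p = 0.518) fell to 0.12 without NCACS mouse 15 and rose to 0.41 without NCACS mouse 13. The start of the gene overlaps Apex2 on the opposite strand, and the strand setting of the counting is not given in the sources used here.

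Pklr (ENSMUSG00000041237, chromosome 3, 89136142 to 89146784) encodes the pyruvate kinase of liver and red cells, which performs the last step of glycolysis and whose liver promoter carries the response element shown above. NCACS mice 11 to 15 had 114, 169, 81.4, 157 and 48.5 CPM and CACS mice 16 to 20 had 136, 92.2, 237, 243 and 161 CPM. CACS mice 18 and 19 were above every NCACS liver, while CACS mice 16, 17 and 20 lay within the NCACS range. The mean was 114 ± 50.5 CPM (NCACS) against 174 ± 65.3 CPM (CACS) (± SD, n = 5 per group), the largest rise in means among the glucose entry genes, with a log2 fold change of 0.61 (standard error 0.343, 95% interval -0.14 to 1.36). It did not pass the threshold (adjusted p = 0.325), and without NCACS mouse 15, the lowest of the 10 livers, the log2 fold change was 0.42. Without NCACS mouse 12 it was 0.80. Erythroid markers, which mark the other source of Pklr transcripts, summed to between 212 and 456 CPM over NCACS livers and between 283 and 477 CPM over CACS livers (4 of 8 markers tested, none called), so their ranges overlapped. The end of Pklr overlaps Hcn3 on the opposite strand.

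**Figure D2:**
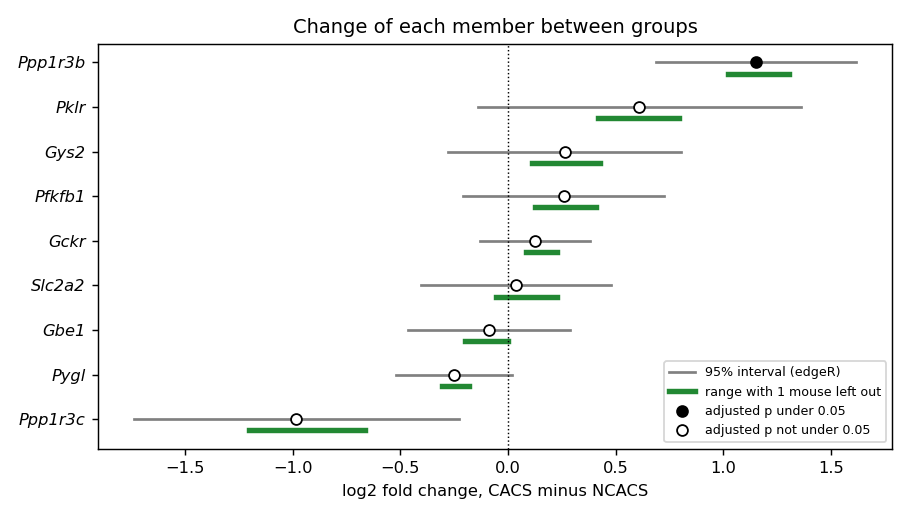
Log2 fold change of CACS over NCACS livers for each gene (points, filled where the adjusted p-value is under 0.05), with its 95% interval from edgeR (grey) and the range over the 10 fits without 1 mouse (green). Ppp1r3b alone is filled, its range of 1.02 to 1.31 stays far from 0, and the ranges of Slc2a2 and Gbe1 cross 0.

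Glycogen is built by the liver synthase Gys2 and the branching enzyme Gbe1. Gys2 (ENSMUSG00000030244, chromosome 6, 142422613 to 142473109) had 291, 231, 112, 246 and 135 CPM in NCACS mice 11 to 15 and 203, 229, 329.7, 229.8 and 226 CPM in CACS mice 16 to 20. NCACS mice 13 and 15 were low, and the other 8 livers shared 1 range from 203 CPM upwards. The log2 fold change was 0.26 (standard error 0.248, 95% interval -0.28 to 0.80, adjusted p = 0.577). It became 0.11 without NCACS mouse 13 and 0.43 without NCACS mouse 11. Gbe1 (ENSMUSG00000022707, chromosome 16, 70313949 to 70569716) spanned 45.5 to 83.7 CPM over NCACS and 50.8 to 81.4 CPM over CACS livers, nearly the same range, with a log2 fold change of -0.09 (standard error 0.173, 95% interval -0.47 to 0.29, adjusted p = 0.815).

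Glycogen is broken down by the phosphorylase that Pygl (ENSMUSG00000021069, chromosome 12, 70190811 to 70231488) encodes. Levels were 306, 291, 272, 382 and 366 CPM in NCACS mice 11 to 15 and 248, 293, 309, 262 and 249 CPM in CACS mice 16 to 20. NCACS mice 14 and 15 were above every CACS liver, and CACS mice 16, 19 and 20 were below every NCACS liver. The log2 fold change was -0.25 (standard error 0.123, 95% interval -0.52 to 0.02, adjusted p = 0.267), negative in all 10 fits without 1 mouse (-0.30 to -0.18) and past the threshold in none.

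The balance of synthase to phosphorylase transcripts within each liver does not depend on how libraries are scaled. The log2 ratio of Gys2 to Pygl CPM was -0.75 ± 0.590 in NCACS and -0.18 ± 0.173 in CACS livers (± SD, n = 5 per group), so the ratio was 1.49-fold higher in CACS livers. The difference did not pass 0.05 (two-sided exact permutation p = 0.0873 over all assignments of the livers to groups, and 0.146 by the Benjamini-Hochberg method over 5 ratios, n = 5 per group). NCACS mice 13 and 15 had the lowest ratios, -1.28 and -1.44, while NCACS mouse 11 at -0.07 was above every CACS liver but mouse 18. The log2 ratio of Gbe1 to Gys2 was -1.52 ± 0.332 in NCACS and -1.94 ± 0.267 in CACS livers (exact permutation p = 0.0794, adjusted 0.146 over the same 5 ratios). Gckr to Pfkfb1 and Pklr to Slc2a2 differed by -0.16 and 0.60 on the log2 scale, with exact permutation p-values of 0.611 and 0.198 (adjusted 0.611 and 0.248).

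Ppp1r3b (ENSMUSG00000046794, forward strand of chromosome 8, 35375739 to 35388139) gave the clearest difference of the 9 genes. Its level was 90.8, 204, 116, 148 and 167 CPM in NCACS mice 11 to 15 and 327, 256, 307, 291 and 432 CPM in CACS mice 16 to 20. Every CACS liver was above every NCACS liver, with mouse 17 the lowest of the CACS group and mouse 12 the highest of the NCACS group. The means were 145 ± 44.0 and 323 ± 66.4 CPM (± SD, n = 5 per group), a log2 fold change of 1.15 (standard error 0.213, 95% interval 0.69 to 1.62, adjusted p = 0.0220). The call held in all 10 fits without 1 mouse, with log2 fold changes from 1.02 to 1.31 and adjusted p-values from 0.0170 to 0.0490, the largest without CACS mouse 16. DESeq2 and limma-voom gave adjusted p-values of 2.35e-05 and 0.0205. The start of Ppp1r3b overlaps the long non-coding gene Gm45469 on the opposite strand, and the part of reads from it was not tested.

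Ppp1r3c (ENSMUSG00000067279, reverse strand of chromosome 19, 36731731 to 36736653) encodes another glycogen-targeting subunit, found in many tissues, whose protein is known as PTG. It had 44.9, 56.7, 69.7, 161 and 119 CPM in NCACS mice 11 to 15 and 47.6, 71.8, 38.9, 40.7 and 29.2 CPM in CACS mice 16 to 20. NCACS mice 14 and 15 were above all other livers, CACS mice 18, 19 and 20 were below all NCACS livers, and the remaining livers overlapped. The log2 fold change of -0.98 (standard error 0.345, 95% interval -1.74 to -0.23) did not pass the threshold in edgeR (adjusted p = 0.128) and did in DESeq2 (adjusted p = 0.0361), while limma-voom gave 0.159. Without NCACS mouse 14 it was -0.67, so the size of this difference rested in part on that mouse. Without CACS mouse 17 the log2 fold change was -1.20.

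Within each liver the log2 ratio of Ppp1r3b to Ppp1r3c was 0.79 ± 0.722 in NCACS and 2.86 ± 0.728 in CACS livers (± SD, n = 5 per group), which is a 4.20-fold difference of the ratio. The exact permutation p-value was 0.0159, and 0.0794 after adjustment over the 5 ratios, which did not pass 0.05. The groups met at a single pair of livers, NCACS mouse 12 at 1.844 and CACS mouse 17 at 1.836. NCACS mouse 14 had the lowest ratio, -0.12, and CACS mouse 20 the highest, 3.88. A CPM ratio between genes of unequal length compares livers and does not say which gene had more transcripts.

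The rest of the subunit family was expressed at lower levels. Per length of transcript (TPM, computed from union exon lengths), the 5 tested subunits summed to 139 ± 51.5 TPM in NCACS and 178 ± 16.8 TPM in CACS livers (± SD, n = 5 per group). Ppp1r3b made up 28.1 to 60.4% of that sum in NCACS livers and 56.3 to 85.8% in CACS livers, and Ppp1r3c 38.4 to 69.9% and 13.2 to 36.0%. These shares are a description, since they repeat the 2 levels given above. Ppp1r3e made up 6.15% or less in any liver and Ppp1r3d 0.271% or less. Ppp1r3g, a subunit known to be induced by fasting in liver, was at 0.0647 to 0.623 CPM over NCACS livers, against 4.95 and 10.4 CPM for CACS mice 16 and 17, while CACS mice 18, 19 and 20 had 0.620, 1.18 and 0.659 CPM. Its log2 fold change of 3.23 (adjusted p = 0.0551, standard error 0.837) did not pass the threshold. It was 2.30 without CACS mouse 17 and 3.50 without CACS mouse 18. The adjusted p-value was 0.00567 in DESeq2, 0.171 in limma-voom and 0.0489 in edgeR without the filter on low counts. In edgeR's 10 fits without 1 mouse it ranged from 0.0473 to 0.101, and only the fit without CACS mouse 18 passed.

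**Figure D3:**
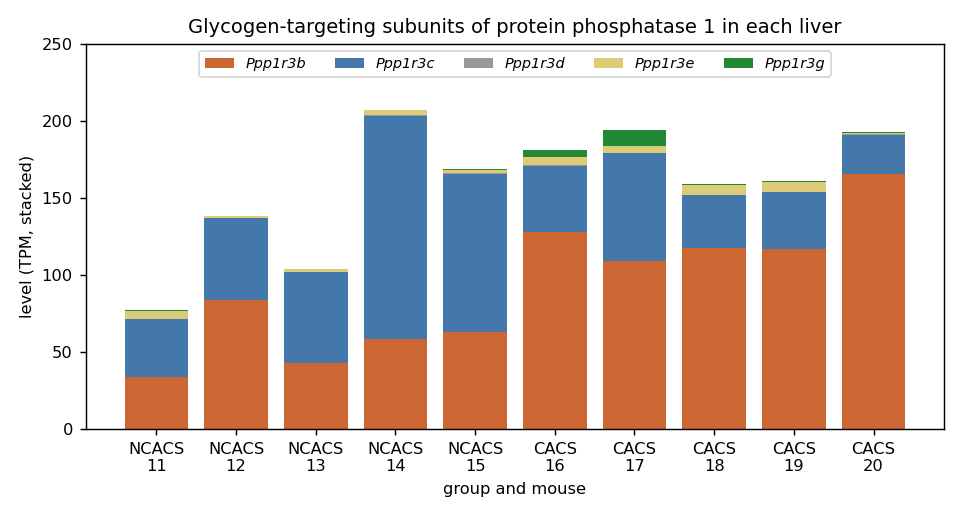
Levels of the 5 tested glycogen-targeting subunit genes in each liver, stacked (TPM, axis from 0), for NCACS mice 11 to 15 and CACS mice 16 to 20. Ppp1r3b fills 56.3% or more of each CACS bar, Ppp1r3c is larger than Ppp1r3b in 4 of the 5 NCACS bars, and Ppp1r3g is thickest in CACS mice 16 and 17.

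Compared per length of transcript, the members kept a wide range of levels. In NCACS livers Gys2 was highest at 184 ± 69.9 TPM, followed by Gckr (147 ± 26.2), Pygl (112 ± 18.03), Slc2a2 (111 ± 35.7), Pklr (85.3 ± 40.9), Ppp1r3c (79.5 ± 43.8), Ppp1r3b (56.4 ± 19.3), Gbe1 (30.4 ± 7.09) and Pfkfb1 (22.9 ± 6.94 TPM, SD, n = 5). Neighbours in this order were closer than the larger of their SDs, apart from the steps from Gckr to Pygl, from Ppp1r3b to Gbe1 and from Gbe1 to Pfkfb1. In CACS livers Gys2 (226 ± 42.1) and Gckr (166 ± 17.6) again led, Ppp1r3b stood between Pklr and Slc2a2 at 128 ± 22.3 TPM, and Ppp1r3c stood at 41.8 ± 16.8 TPM.

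The spread of the members also differed between the groups in a way that the means do not show. For all 9 genes the SD of log2 CPM over the NCACS livers was above that over the CACS livers, with medians of 0.46 and 0.29. Over all tested genes the NCACS SD was the larger in 53.7%, with medians of 0.26 and 0.24. Of the 9 highest values 6 were in NCACS livers, 5 of them in mouse 14, and of the 9 lowest values 7 were in NCACS livers, 3 each in mice 13 and 15. Mouse 14 had the smallest weight loss of the NCACS group (-3%), and mice 13 and 15 the largest (-11 and -14%). Weight changes ranged from -14 to -3% over NCACS and from -33 to -29% over CACS mice. The part of weight loss in the spread was not tested. Mice 15 and 13 also had the lowest Alb levels of the 10 livers, 45741 and 52622 CPM, and mouse 15 had the lowest Ttr level, 5602 CPM. Apoa1 and Serpina1a were lowest in NCACS mouse 14 and Tat in CACS mouse 18. The part of these markers in the spread was not tested. Without NCACS mouse 13, 14 or 15 the count became 8, 7 or 8 of 9 genes, and the share of all tested genes 46.8, 51.5 or 46.8%. This measure was chosen after the data had been seen, the 9 genes share the same livers and are not independent, and no test was made of the difference.

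**Figure D4:**
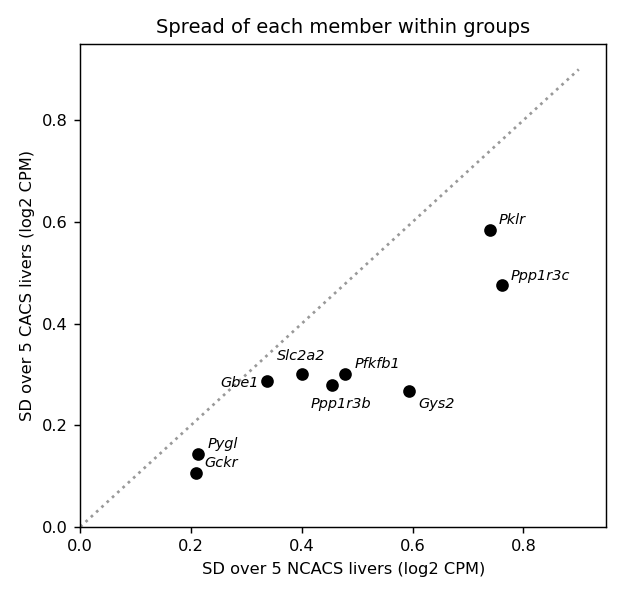
SD of log2 CPM over the 5 CACS livers against that over the 5 NCACS livers for each gene, with the line of equal spread dotted. All 9 genes lie below the line, Pklr and Ppp1r3c with the widest spread and Gckr and Pygl with the narrowest.

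The other genes of these pathways were read from 4 lists, of which 80 of 85 genes were tested. Of the 80, 2 were higher and 1 was lower in CACS livers past the threshold, which is 3 calls where 3.8% of all tested genes were called. The median log2 fold change was 0.07. In edgeR's test unadjusted p-values were under 0.05 for 22 of the 80 genes and for 21.6% of all tested genes. None of 27 glycolysis genes passed, and the unadjusted p-value was under 0.05 for 9 of these, 5 higher and 4 lower. Phosphofructokinase of liver, Pfkl, differed by 0.09 on the log2 scale (adjusted p = 0.670) and the pyruvate kinase of other tissues, Pkm, -0.40 (adjusted p = 0.327). None of 12 genes of sugar transport and fructose use passed, with 2 higher and 1 lower at an unadjusted p-value under 0.05. DESeq2 called 12 of the 80 genes higher and 3 lower, where it called 10% of all genes to which it gave an adjusted p-value. The other genes of the bifunctional enzyme and the muscle phosphorylase, given here after their values had been seen, were not called by edgeR. Pfkfb2 had 11.4 to 16.6 CPM over NCACS and 15.1 to 30.1 CPM over CACS livers (log2 fold change 0.67, adjusted p = 0.0510). Pfkfb3 had 5.10 to 17.2 CPM over NCACS and 11.6 to 61.0 CPM over CACS livers, with CACS mice 17 and 19 highest (log2 fold change 1.54, adjusted p = 0.0754). For Pfkfb4 and Pygm the log2 fold changes were -0.75 and -0.66 (adjusted p = 0.207 and 0.433). Pygm was highest in NCACS mouse 11, at 9.94 CPM against 2.19 to 3.16 CPM in the other NCACS livers and 1.55 to 4.92 CPM over CACS livers. That mouse also had the highest sum of muscle markers, and its part in the Pygm difference was not tested.

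Among 27 glycogen genes other than the members, 1 was called, where 3.8% of all tested genes were called. Phkb (ENSMUSG00000036879, chromosome 8, 85840959 to 86061376), the beta subunit of the phosphorylase kinase that switches phosphorylase on, was lower in CACS livers, with 24.7, 23.9, 25.5, 25.8 and 30.0 CPM in NCACS mice 11 to 15 and 17.6, 20.3, 16.8, 14.3 and 16.005 CPM in CACS mice 16 to 20. The groups did not overlap, which held for 7.07% of all tested genes. The log2 fold change was -0.61 (adjusted p = 0.0181, standard error 0.107), past the threshold in all 10 fits without 1 mouse (-0.68 to -0.55). Ugp2, which makes the UDP-glucose used by the synthase, differed by -0.20 on the log2 scale (adjusted p = 0.654) and the primer protein gene Gyg by -0.33 (adjusted p = 0.141). The muscle-type synthase Gys1 lay between 2.29 and 3.74 CPM over NCACS and between 3.62 and 8.25 CPM over CACS livers (log2 fold change 0.76, adjusted p = 0.0937), far below Gys2 per length (1.54 ± 0.252 and 2.68 ± 0.905 TPM, SD, n = 5 each). The brain-type phosphorylase Pygb, at 2.72 to 5.88 CPM in any liver, differed by -0.03 (adjusted p = 0.956).

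Of 14 carbohydrate-sensing regulators and their targets, 2 were called and both were higher in CACS livers. Over all tested genes 3.8% were called, 1.89% higher in CACS livers. Mlxip, which encodes MondoA, a relative of ChREBP, rose from 10.2 ± 2.07 to 16.01 ± 1.65 CPM (± SD, n = 5 per group, log2 fold change 0.64, adjusted p = 0.0359), and Hnf4a, a hepatocyte nuclear receptor, from 632 ± 42.5 to 891 ± 116 CPM (log2 fold change 0.50, adjusted p = 0.0435). The groups did not overlap for either gene, against 7.07% of all tested genes without overlap. These calls were less stable than those of Ppp1r3b and Phkb: with a mouse left out, Mlxip passed in 3 and Hnf4a in 1 of 10 fits. The adjusted p-values reached 0.0775 for Mlxip and 0.0974 for Hnf4a in those fits. Mlxipl, which encodes ChREBP itself, differed by 0.15 on the log2 scale (adjusted p = 0.599), and the glucose-responsive gene Txnip 0.98 (adjusted p = 0.156), reaching 124 and 169 CPM in CACS mice 16 and 18 where the other 8 livers had 28.5 to 54.4 CPM. Hnf4a overlaps the antisense gene Hnf4aos, and the part of that overlap in its counts was not tested.

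**Figure D5:**
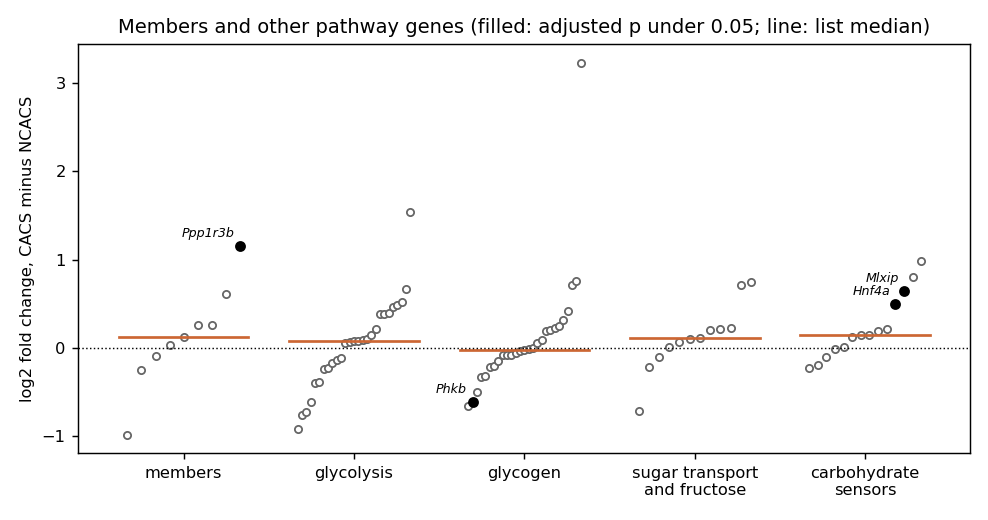
Log2 fold changes of CACS over NCACS livers for the 9 members and the 80 other tested pathway genes, by list, each dot a gene, filled where the adjusted p-value is under 0.05, with list medians as lines. The filled genes are Ppp1r3b, Mlxip and Hnf4a above 0 and Phkb below 0, and the open point highest in the glycogen list is Ppp1r3g.

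The genes whose levels over the 10 livers were most like those of Ppp1r3b were found by the root mean square difference of log2 CPM after each gene was centred on its own mean, among tested genes with at least 5 CPM. They were Atp10d (0.26), Pcp4l1 (0.27), Ccdc57 (0.28), Abcd4 (0.31) and Nrbp2 (0.32), against an SD of 0.72 for Ppp1r3b itself over the same livers. The likeness includes the difference between the groups. Their log2 fold changes were 0.94, 1.33, 1.13, 0.96 and 1.39, and all but that of Atp10d (adjusted p = 0.0819) passed the threshold.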

How the data were processed

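RNA from the livers of male KL mice, 5 per group, was sequenced by the authors from stranded mRNA libraries with single reads. The authors aligned the reads to GRCm38 with STAR 2.4.1d and deposited raw counts per Ensembl gene from HTSeq 0.6.1, with no normalization; the annotation release and the strand setting are not given in the sources used here. GENCODE M21, which uses that build, gave symbols, positions and exon lengths, and 1167 of 43629 identifiers had no symbol there. Groups and weight changes came from the sample labels, and 0 columns were left unused.

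After filterByExpr, 14143 genes were scaled with TMM factors and fitted in edgeR 4.0.16 under R 4.3.3, with Benjamini-Hochberg adjusted p-values and a threshold of 0.05. Log2 CPM used a prior count of 2. Ratios within a liver were tested by exact permutation. DESeq2 1.42.0, limma 3.58.1 (voom), other factors and filters, a robust fit and leaving out each mouse were alternatives. Scripts were tested on simulated data. No 2 livers of a group were 1 library (smallest chi-square per degree of freedom 50.1). The labels name mice by number and no batch, so a batch could not be fitted, although the study's methods mention a batch correction. The study's liver data also included KL livers from another series that were not used here. Its methods do not say between which samples the correction was made.

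The members and lists were chosen with earlier results of these data known, so no list is independent evidence. Named were all members, called genes of the 4 pathway lists, a chosen set of genes that share a step with a member, and the 5 genes most like a called member. Dbp, Arntl, Per1, Per2, Nr1d1, Cd5l, Pfkfb2, Pfkfb3, Pfkfb4 and Pygm, the genes overlapping members and the Pklr motif were chosen after their values or sequences had been seen, and 2 genes that the rule covers and 1 allele of the mice are not reported here.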

Additional observations from a re-analysis of the deposited data

Results flagged for a closer look

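In each group of 5 livers the highest or lowest value was compared with the rest for the members, the other pathway genes named above and the 5 ratios, which gave 56 comparisons, and 3 passed Dixon's 95% critical value for groups of 5 (gap to the nearest liver over the range of the group). Gaps and ranges were taken on the log2 scale, so they do not follow directly from the CPM values printed beside them. Chance flags about 1 in 20 such groups. Gys2 was highest in CACS mouse 18 (329.7 CPM, gap over range 0.743), and its log2 fold change was 0.13 without that mouse. Ppp1r3e was lowest in CACS mouse 20 (1.03 CPM against 4.38 CPM or more, gap over range 0.766). The log2 ratio of Gbe1 to Gys2 was highest in CACS mouse 16 (-1.47 against at most -2.002, gap over range 0.775).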

How the results depend on the processing

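The call of Ppp1r3b and the direction of every member held under other scaling factors, other filters, DESeq2, limma-voom and a robust fit, and no scaling moved the median log2 fold change of all genes by more than 0.1. DESeq2 called 1386 genes (672 higher and 714 lower), 1 member lower (Ppp1r3c, log2 fold change -0.99), and 12 other pathway genes higher and 3 lower. Without the filter 173 genes were higher, and Hnf4a lost its call (adjusted p = 0.0763). Upper-quartile factors and raw totals each gave 2 pathway genes lower.

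With a mouse left out, edgeR called 178 to 519 genes, 79 to 246 higher and 96 to 273 lower, and 0 to 4 other pathway genes higher and 1 to 2 lower. Fewer mice are tested in these fits. The count of higher pathway genes was 0 without NCACS mouse 11, 13 or 14 or CACS mouse 16, 19 or 20, 1 without NCACS mouse 15 and 4 without CACS mouse 18. Of the members, Slc2a2 ranged from -0.0568 to 0.228 and Gbe1 from -0.20 to 0.0021 on the log2 scale. Pygb ranged from -0.163 to 0.0826 and Ugp2 from -0.35 to 0.0080, so their signs were not settled. The ratio Gys2 to Pygl differed by 0.41 to 0.75 and passed 0.05 without NCACS mouse 11 or 12. Pklr to Slc2a2 differed by 0.35 to 0.88, past 0.05 without CACS mouse 17, and Gbe1 to Gys2 by -0.53 to -0.31, past 0.05 without NCACS mouse 11 or CACS mouse 16. No paired analysis was possible because no replicate number occurs in both groups. With 5 livers a group, the 95% interval reached from -0.13 to 0.38 for Gckr, the narrowest of the members, and from -1.74 to -0.23 for Ppp1r3c, the widest, which shows the precision that 5 livers allow.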
